A study of Mus musculus with 6 samples.

Results

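The cytosolic ribosomal protein genes encode the proteins of the large and small subunits of the ribosome outside the mitochondrion. Their rows were taken by symbol, as Rpl, Rplp or Rps followed by a number and at most a short suffix, without the S6 kinases and without symbols containing -ps. This gave 84 of the 20160 rows of the table, 52 with large subunit symbols and 32 with small subunit symbols. By annotation, 80 of the 84 are protein coding and 4 (Rpl37rt, Rpl32l, Rpl6l and Rps3a2) are processed pseudogenes, that is, copies made from a messenger RNA. Rps19bp1 has a matching symbol but encodes a nucleolar protein that binds Rps19 and is not a subunit.

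The study put S-180 cells, a mouse sarcoma line, under the skin of athymic BALB/c nude mice and sequenced RNA of the tumours. In the RGLS group (3 libraries) the mice had been given RGLS beforehand, which the series title ties to Ganoderma lucidum spores freed of their outer coat. The model group (3 libraries) carries no further agent in the labels, and no source used here gives dose, schedule, sex or age. Tumour and host are both mouse, so reads cannot be assigned to either, and the labels do not say whether libraries of a group came from separate mice.

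Ribosomal proteins assemble with ribosomal RNA in the nucleolus, in near equal amounts, and a growing cell spends much of its protein synthesis on them. Their messenger RNAs are short, are usually among the most abundant of a proliferating cell, and begin with a run of pyrimidines through which mTOR signalling controls their translation. Some members also act outside the ribosome. Free RPL5 and RPL11, for example, bind MDM2, the ubiquitin ligase that restrains p53.

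Over the 6 libraries the 84 rows, summed by subunit, overlapped between the groups, and no member tested in the main fit was called. Most members had too few reads to be tested there. Single members whose groups did not overlap are given below. Large subunit rows summed to 15.1 CPM ± 1.80 in the model group (SD, n = 3) and to 15.1 ± 2.04 with RGLS (SD, n = 3). Small subunit rows summed to 12.9 ± 1.40 and 12.4 ± 1.43. CPM here are the authors' TMM-scaled values, reads divided by an effective library size and not by gene length. Of the 9 members abundant enough to test, limma called 0 higher and 0 lower, against 1.47% of the 2319 rows tested in the whole table (0.949% higher and 0.517% lower). On the recovered reads edgeR called 0 of 14 members and DESeq2 0 of 15, against 1.33% and 1.84% of all rows, and limma with the replicate number as a block called 0 of 9, against 9.96%. With no filter on low values limma called 1 of the 84, higher in RGLS, against 1.36% of all rows. With 3 libraries a group and few reads a gene, moderate differences could be missed at this depth. In bulk RNA, fewer cells of a type and less RNA per cell cannot be told apart.

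The depth on these genes was small. The members held between 447 and 695 reads per library, 0.115% to 0.152% of the reads in the table, while the table itself held 369453 to 458641 reads per library. A single read was worth 0.0390 to 0.0575 CPM. Of the 84 members, 37 had fewer than 10 reads over all 6 libraries, 10 had at least 100, and 28 had a read in every library. The median row had 14.5 reads, beside 11 over all rows. The rows of the table held only 1.79% to 2.21% of the authors' library sizes, and whether the values of a member, with or without a gene opposite, measure its own transcripts was not tested. Mean CPM was above the table's median of 0.0858 at the median member, with 0.115.

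A property of the table bears on every row named below. A row is called overlapped where at least 50 of its exonic bases are also exonic in a gene transcribed the other way, and other annotated rows are called rows with no gene opposite. No source used here states whether counting used the strand. Reads of an overlapped row therefore cannot be told apart from reads of the gene opposite. This held for 18 members (21.4%), 12 large and 6 small, against 31.2% of all rows. It held for 7 of the 9 tested members, and overlapped members had a median of 66.5 reads against 8.50 for those with no gene opposite. The class also moved with the groups over the whole table. All overlapped rows together went from 18303 CPM ± 750 to 15096 ± 1208, and all rows with no gene opposite from 2856 ± 137 to 3431 ± 381 (n = 3 each). Members are given by class for that reason.

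The start sites of the tested members, and of Rpl15, are shown. In several of these genes (Rps25, Rpl18, Rps18, Rpl10a and Rpl15) the gene on the opposite strand lies head to head with the member, so the overlap falls towards this end. In Rps25, Rpl18, Rps18 and Rpl15 the opposite gene lies wholly upstream of the window, so these lines do not show the overlapped bases. Each line covers 30 bases before and 30 bases from the RefSeq start on the strand of the gene (RefSeq, GRCm38.p6), and capitals mark CTTTCC, a pyrimidine run searched on both strands (GGAAAG is its reverse complement).
Rps25 (chr9:44407684-44407743, plus strand): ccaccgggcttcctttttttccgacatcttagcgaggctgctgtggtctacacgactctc
Rpl10a (chr17:28328441-28328500, plus strand): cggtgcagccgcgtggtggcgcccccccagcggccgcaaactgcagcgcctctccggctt
Rpl18 (chr7:45718041-45718100, plus strand): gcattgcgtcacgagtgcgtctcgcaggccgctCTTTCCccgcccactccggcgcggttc
Rps18 (chr17:33955636-33955695, minus strand): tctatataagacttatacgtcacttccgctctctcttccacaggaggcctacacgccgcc
Rpl37rt (chr5:115110239-115110298, minus strand): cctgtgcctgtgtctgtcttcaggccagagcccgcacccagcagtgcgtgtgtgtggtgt
Rps28 (chr17:33824533-33824592, minus strand): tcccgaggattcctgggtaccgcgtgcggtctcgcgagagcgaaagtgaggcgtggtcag
Rpl28 (chr7:4792935-4792994, plus strand): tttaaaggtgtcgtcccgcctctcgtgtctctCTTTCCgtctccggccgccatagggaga
Rpl4 (chr9:64173357-64173416, plus strand): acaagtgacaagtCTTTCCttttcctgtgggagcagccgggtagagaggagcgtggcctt
Rpl5 (chr5:107900498-107900557, plus strand): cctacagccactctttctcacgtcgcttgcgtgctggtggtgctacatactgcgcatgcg
Rpl15 (chr14:18270957-18271016, minus strand): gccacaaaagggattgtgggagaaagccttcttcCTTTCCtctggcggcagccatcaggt

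A promoter entry was found for 64 of the 84 members. In these 60-base windows CTTTCC or its reverse complement occurred in 12 of the 64 (18.8%), against 5.35% of the windows of all 27025 promoter entries in the RefSeq set. In the whole 300-base entries, 250 bases before to 50 after the start, it occurred in 30 of 64 (46.9%), against 26.3%. CGGAAG or its reverse complement CTTCCG, the core bound by ETS factors, occurred in 41 of the 64 whole entries (64.1%), against 17.2% of all. The letter patterns do not contain each other. These matches describe the windows and show no binding.

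Summed over the large subunit, model libraries 1, 2 and 3 had 14.1, 17.2 and 14.04 CPM, and RGLS libraries 1, 2 and 3 had 15.9, 16.6 and 12.8 CPM. The groups overlapped, and the lowest and second highest libraries were both RGLS. The ratio of RGLS to model reads, scaled to library size, was 1.01 with a 95% exact counting interval of 0.917 to 1.10, which covers counting error only. Within the large subunit the classes moved apart. The 12 overlapped rows summed to 8.84 CPM ± 1.01 in model and 6.996 ± 0.636 in RGLS, each RGLS library lying below each model library. The 40 rows with no gene opposite summed to 6.27 ± 0.893 and 8.13 ± 2.24. Their RGLS libraries 1 and 2 (9.66 and 9.17 CPM) lay above all model libraries, while RGLS 3 (5.56) lay within them.

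The small subunit summed to 14.3, 13.0 and 11.5 CPM in model and 11.1, 12.01 and 13.9 CPM in RGLS, again with overlap. The scaled ratio of reads was 0.951, with a counting interval of 0.859 to 1.05. A single row, Rps25, made up between 39.5% and 60.1% of this sum in each library. The 26 small subunit rows with no gene opposite summed to 2.68 ± 1.10 and 3.14 ± 1.27 CPM, and the 6 overlapped rows to 10.2 ± 0.792 and 9.23 ± 2.63. In these overlapped rows RGLS 3 stood apart from its group, with 12.2 CPM beside 7.48 and 7.95 in RGLS 1 and 2.

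**Figure D1:**
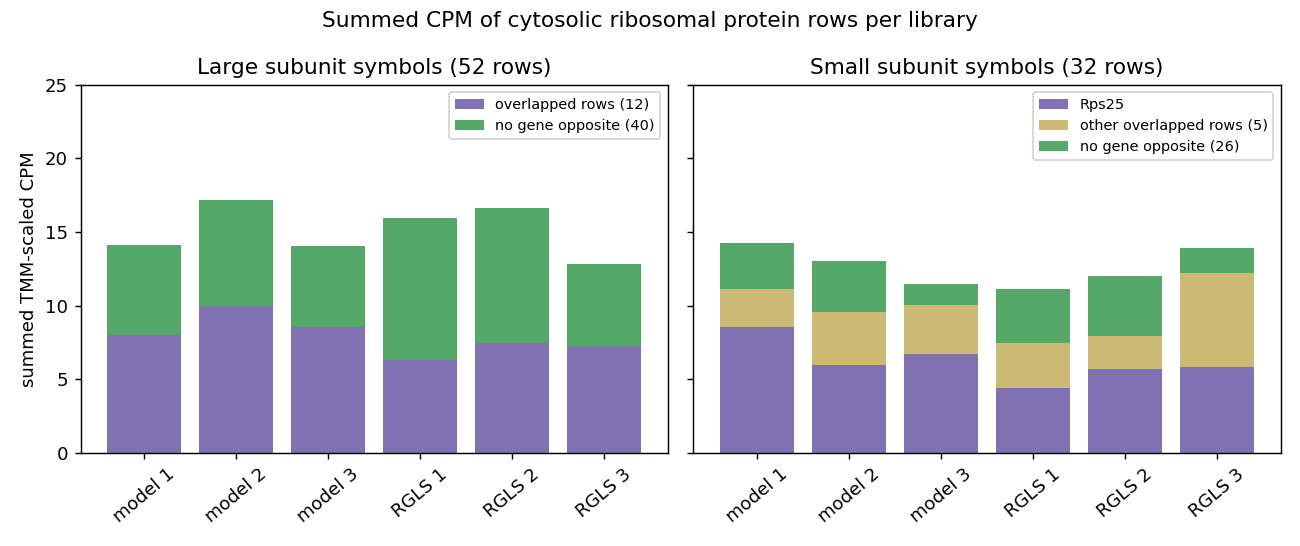
Summed TMM-scaled CPM of large subunit rows (left) and small subunit rows (right) in each library, as stacked bars split by overlap with a gene on the opposite strand, with Rps25 shown apart. The totals overlap between groups, Rps25 makes up 39.5% to 60.1% of the small subunit sum, and the overlapped small subunit rows are higher in RGLS 3 than in RGLS 1 and 2.

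The balance between the subunits did not separate the groups. The log2 ratio of summed large to summed small CPM was -0.02, 0.40 and 0.29 in model and 0.52, 0.47 and -0.12 in RGLS. Its means were 0.23 ± 0.22 and 0.29 ± 0.36 (SD, n = 3 each), a difference of 0.06.

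The 9 tested members are those that reached 1 CPM in 3 or more libraries. Rpl5 entered through its RGLS libraries alone and Rpl4 through its model libraries alone, so their entry already depended on a difference. The log2 fold changes below are of log2(CPM + 1), which understates changes of low rows, and come from limma fitted to all 2319 rows with Benjamini-Hochberg adjustment. Their median was -0.22, beside -0.17 over all rows tested, and 7 of the 9 lay below 0, as did 1705 of the 2319. The unadjusted p was under 0.05 for 1 member (Rpl5), against 23.3% of all rows tested.

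Rps25 (chromosome 9, 44407139 to 44410427), a small subunit head protein needed for initiation on some viral RNAs, was the most abundant member, also per length (2.31 CPM per kb of exon). It had 8.57, 5.99 and 6.73 CPM in model and 4.402, 5.72 and 5.80 in RGLS. Each RGLS library lay below each model library, the closest pair being 5.80 and 5.99. The log2 fold change was -0.36 (SE 0.17, 95% interval -0.73 to 0.01, limma adjusted p = 0.235). Trappc4, a subunit of a vesicle tethering complex, overlaps it over 462 bases head to head, and Ccdc84 over 206 bases at the other end.

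Rps18 (chromosome 17, 33951999 to 33956001), a head protein that contacts the large subunit, had 1.44, 2.26 and 1.71 CPM in model and 1.52, 1.005 and 1.68 in RGLS. Its groups overlapped, and the difference was -0.22 on the log2 scale (SE 0.21, adjusted p = 0.536 by limma). Rps28 (chromosome 17, 33819027 to 33824562), which lies near the exit of the messenger RNA channel, had 1.04, 1.07 and 1.37 CPM in model and 1.01, 1.005 and 1.31 in RGLS. It was the most even of the tested rows, at -0.03 with a 95% interval of -0.44 to 0.37 (limma adjusted p = 0.938), and the sign changed with the scaling.

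Among large subunit proteins, Rpl10a (chromosome 17, 28328471 to 28331033), the protein of the L1 stalk, had 1.73, 2.83 and 1.54 CPM in model and 1.36, 2.36 and 1.40 in RGLS. The groups overlapped, with the second library the highest of each, and the difference was -0.16 on the log2 scale (SE 0.22, adjusted p = 0.703 by limma). Its sign changed when the medians of both row classes were set equal. Rpl18 (chromosome 7, 45715457 to 45720836), a structural protein of the large subunit opposite the sphingosine kinase gene Sphk2 over 373 bases, had 2.01, 2.32 and 2.23 CPM in model and 1.71, 1.18 and 1.68 in RGLS. All RGLS values lay below all model values, but the difference of -0.34 (95% interval -0.75 to 0.07) did not pass (limma adjusted p = 0.304).

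Rpl28 (chromosome 7, 4792874 to 4795066), a large subunit protein that budding yeast lacks, had 1.32, 1.47 and 0.970 CPM in model and 1.05, 0.874 and 0.514 in RGLS, with overlap between groups. The difference was -0.32 on the log2 scale (SE 0.20, adjusted p = 0.358 by limma), and Ube2s lies opposite over 183 bases. Rpl4 (chromosome 9, 64173375 to 64178666), which lines the exit tunnel of the growing chain, had 1.27, 1.13 and 1.14 CPM in model and 0.857, 0.830 and 0.841 in RGLS. This row has no gene opposite and its groups did not overlap. Each library held only 18 to 22 reads of it, and the difference of -0.24 (95% interval -0.63 to 0.15) did not pass (limma adjusted p = 0.450).

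Rpl5 (chromosome 5, 107900502 to 107909005), which carries 5S ribosomal RNA into the large subunit together with Rpl11, had 0.748, 0.622 and 0.457 CPM in model and 1.01, 1.40 and 1.12 in RGLS. Its RGLS libraries all lay above its model libraries. The log2 fold change of 0.44 (SE 0.19, 95% interval 0.03 to 0.84) had the smallest p of the members and did not pass after adjustment (limma adjusted p = 0.186). Over 13 alternatives its adjusted p lay between 0.146 and 0.432. These do not include leaving out an RGLS library, where Rpl5 fell under the filter and was not tested. Fam69a overlaps it over 953 bases, tail to tail.

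Rpl37rt (chromosome 5, 115102923 to 115110268), a retrotransposed copy of Rpl37, had 1.21, 1.07 and 1.08 CPM in model and 2.03, 2.01 and 0.841 in RGLS. RGLS 1 and 2 were above all model libraries and RGLS 3 was below all of them. The difference was 0.27 (SE 0.22, limma adjusted p = 0.485). The parent row, Rpl37, had 1 read in model and 5 in RGLS, and reads of near-identical copies may have been split between these rows.

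**Figure D2:**
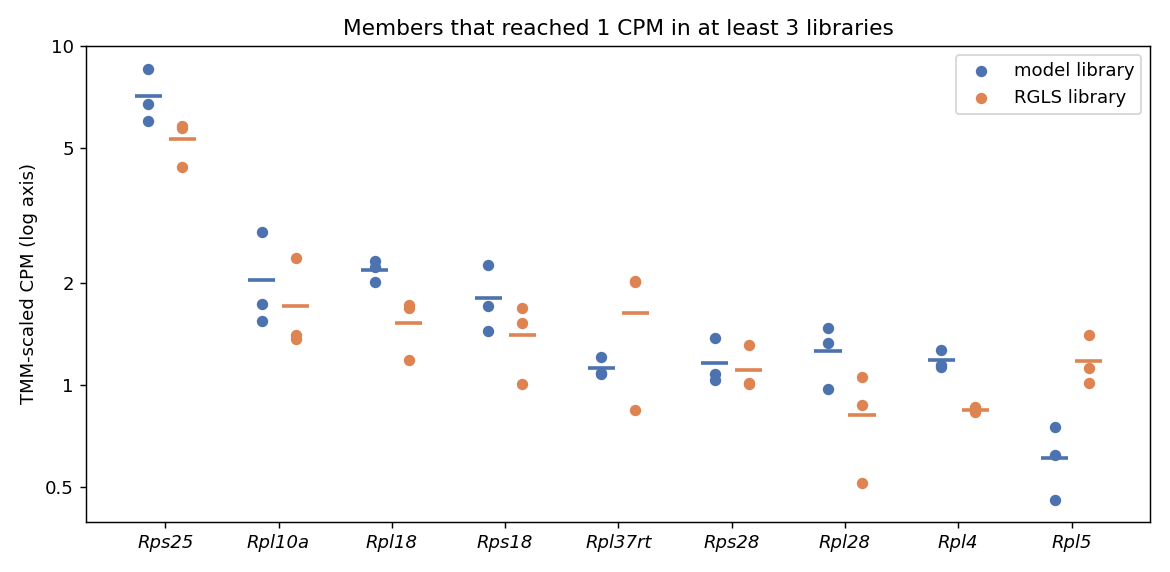
TMM-scaled CPM (log axis) of the 9 tested members in each library, with points for libraries and bars for group means. Rps25 lies apart at 4.402 to 8.57 CPM, the other rows lie between 0.457 and 2.83, and in Rpl37rt RGLS 3 falls below all model libraries.

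The remaining 75 members were under the level tested, and their values are descriptions. Rpl8, next to the peptidyl transferase centre and the 10th most abundant, had 0.633, 0.961 and 0.685 CPM in model and 1.13, 1.005 and 0.467 in RGLS. Rpl36 and Rps15 were among the 6 highest per length, at 1.40 and 0.681 CPM per kb. Rpl36 had 0.575, 0.509 and 0.628 CPM in model and 0.662, 0.699 and 0.140 in RGLS. Rps15, at the subunit head near the decoding site, had 0.748, 0.566 and 0 in model and 0.468, 0.699 and 0.0935 in RGLS. In both rows RGLS 3 was the lowest of its group, and in Rps15 model 3 was the lowest of all.

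Rpl15 (chromosome 14, 18267823 to 18271391), a large subunit protein, had 6, 15 and 19 reads in model and 4, 6 and 7 in RGLS. In CPM this was 0.345, 0.848 and 1.08 against 0.156, 0.262 and 0.327, all RGLS values below all model values. Tested at a lower filter of 0.25 CPM in 3 libraries it had a log2 fold change of -0.47 (limma adjusted p = 0.178, with 2.18% of all rows called). Rpl35, near the tunnel exit, had 0.691, 0.905 and 1.20 CPM in model and 0.195, 0.349 and 0.841 in RGLS, with overlap. Rps3, at the entry of the messenger RNA channel, had 0.806, 0.283 and 0.171 CPM in model and 0.740, 1.57 and 0.280 in RGLS, also with overlap.

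The stalk proteins Rplp0, Rplp1 and Rplp2, which recruit elongation factors to the large subunit, had 33, 6 and 17 reads over all libraries. Rplp0 had 0.403, 0.170 and 0.171 CPM in model and 0.468, 0.131 and 0.234 in RGLS. Rplp2 had 4 reads in model, all in model 2, and 10, 3 and 0 reads in the RGLS libraries. Rplp1 had at most 3 reads in any library. None of the 3 separated the groups.

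Groups did not overlap in 7 members higher in RGLS (8.33%), against 6.95% of all rows, and in 4 lower (4.76%), against 4.96% of all rows. Both shares were near those of the whole table. Among members with no gene opposite 6 were higher (9.09%, against 7.65% of such rows) and 1 lower (1.52%, against 2.55%), and among overlapped members 1 was higher (5.56%, against 5.41%) and 3 lower (16.7%, against 10.2%). The 7 were Rpl5, Rpl27, Rps24, Rpl19, Rpl11, Rpl9 and Rpl6l, and the 4 were Rps25, Rpl18, Rpl4 and Rpl15. Rpl19, Rpl11, Rpl9 and Rpl6l had no read in the 3 model libraries and a read in each RGLS library (4.76% of members, against 1.63% of all rows). Rpl19, which reaches across to the small subunit, had 3, 8 and 2 reads in RGLS. With a floor of 3 reads put in for the model group its ratio was 3.26. The lower counting limit of 2.29 was computed without that floor, from no model read. Rpl11, the partner of Rpl5, had 3, 4 and 2 reads, a ratio of 2.26 on the same floor. Its lower counting limit, again without the floor, was 1.48. Both rows were named for having no model read, so these limits are no evidence of a difference. RGLS libraries were also deeper, with effective sizes of 21394481 to 25668458 against 17377445 to 17683298, and the part of depth in these counts of rows was not tested.

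Mean CPM was higher in RGLS for 51 of the 84 members (60.7%), against 57.1% of all rows. By class it was higher for 45 of 66 members with no gene opposite (68.2%, against 62.3% of all such rows) and for 6 of 18 overlapped members (33.3%, against 45.8%). In each class the more frequent direction was that of all rows of the class. The number of members with at least 1 read was 47, 55 and 47 in model and 66, 62 and 55 in RGLS. RGLS libraries held more reads over the table, 418102 to 458641 against 369453 to 387933 in model. The part of depth in this number was not tested, and it was not set against all rows.

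**Figure D3:**
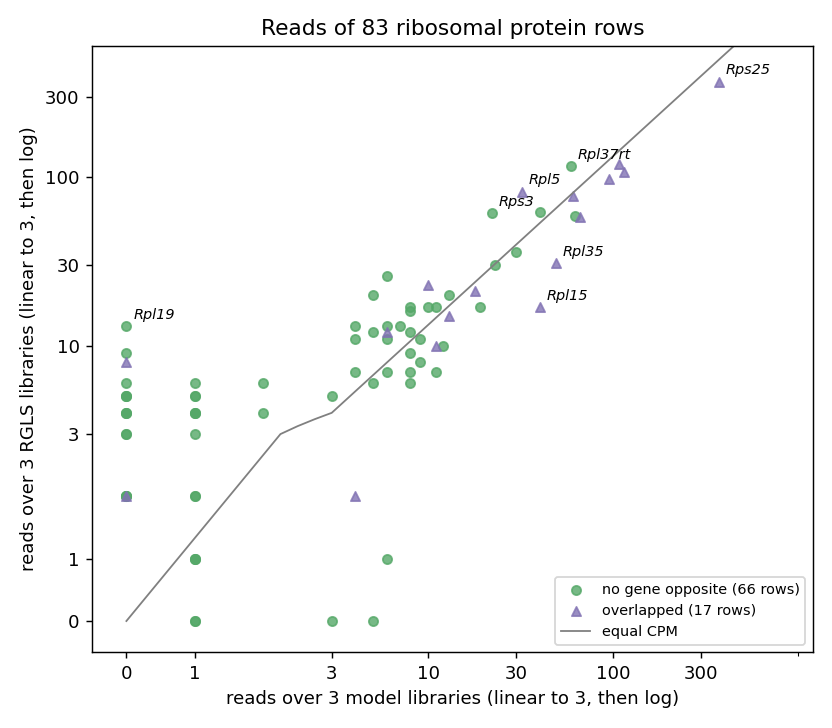
Reads of 83 of the 84 members over the 3 RGLS libraries against the 3 model libraries (axes linear to 3 reads, then logarithmic), with the line of equal CPM. Rows with few reads scatter widely about the line, Rpl5 lies above it with 32 model and 82 RGLS reads, and Rpl15 lies below it with 40 and 17.

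Some members have tissue-restricted or variant forms. Rpl3l, the form of Rpl3 made in skeletal and heart muscle, had 0.0575, 0.113 and 0.171 CPM in model and 0.156, 0.218 and 0.187 in RGLS, that is 6 and 13 reads, with overlap. Rpl3 itself had 8 and 17 reads. Skeletal muscle markers moved with the groups, since the 14 listed genes with a row summed to between 7.58 and 9.02 CPM in model and 13.1 to 14.02 in RGLS. None of those 14 rows was at 0 in all libraries, which holds for every row of the table. Their part in the Rpl3l values was not tested. The macrophage list (7 rows) summed to 14.7 to 16.6 CPM in model and 12.04 to 13.4 in RGLS. The log2 ratio of the mean macrophage sums was -0.30, against -0.19 for all rows and -0.28 for all overlapped rows of the table. Fibroblast, endothelial, red cell and proliferation lists overlapped between groups. The marker sums were not split by overlap class.

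Rpl7l1, a paralog of Rpl7 used in ribosome assembly, had 1, 4 and 1 reads in model and 5, 13 and 8 in RGLS. Its scaled ratio was 3.26 with a counting interval of 1.31 to 9.68, and its CPM overlapped between groups. Rpl22l1, Rpl36al and Rps27rt had 2, 3 and 2 reads in all, too few to compare. Rpl10l, Rpl39l, Rps4l, Rps27l and Rpl27rt were not analysed here.

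The rows lying opposite members were often fuller than the members themselves. Of 17 pairs of a member and an overlapping row, 10 had the higher mean CPM in the opposite row. The widest was Rpl15 with 0.504 CPM against Nkiras1, an inhibitor of NF-kB signalling, with 39.6 CPM over the 6 libraries. Nkiras1 (chromosome 14, 18271136 to 18284003) overlaps it over 105 bases head to head and had 49.9, 39.7 and 32.1 CPM in model and 34.9, 42.9 and 37.8 in RGLS. Its log2 fold change was -0.06 (limma adjusted p = 0.864), and its groups overlapped. Rpl31 and Rpl23a, both at the tunnel exit, had 0.237 and 0.322 CPM, and Tbc1d8 and Tlcd1 opposite them had 6.27 and 5.24.

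In Rps25, Rpl18, Rps18, Rpl28, Rps28 and Rps10 the member was the fuller row, as Rps18 with 1.60 CPM against 0.0283 in Vps52. Trappc4, opposite Rps25, had 2.24, 2.04 and 2.45 CPM in model and 1.75, 0.961 and 2.10 in RGLS, with a log2 fold change of -0.34 (limma adjusted p = 0.355). Of the 10 opposite rows tested, 0 were called. The smallest p was that of Cand2, opposite Rpl32 over 53 bases and a member of the family that exchanges cullin ligase subunits. Cand2 had 1.67, 1.36 and 1.20 CPM in model and 2.65, 3.15 and 1.96 in RGLS, a log2 fold change of 0.57 (limma adjusted p = 0.119), with all RGLS values above all model values.

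**Figure D4:**
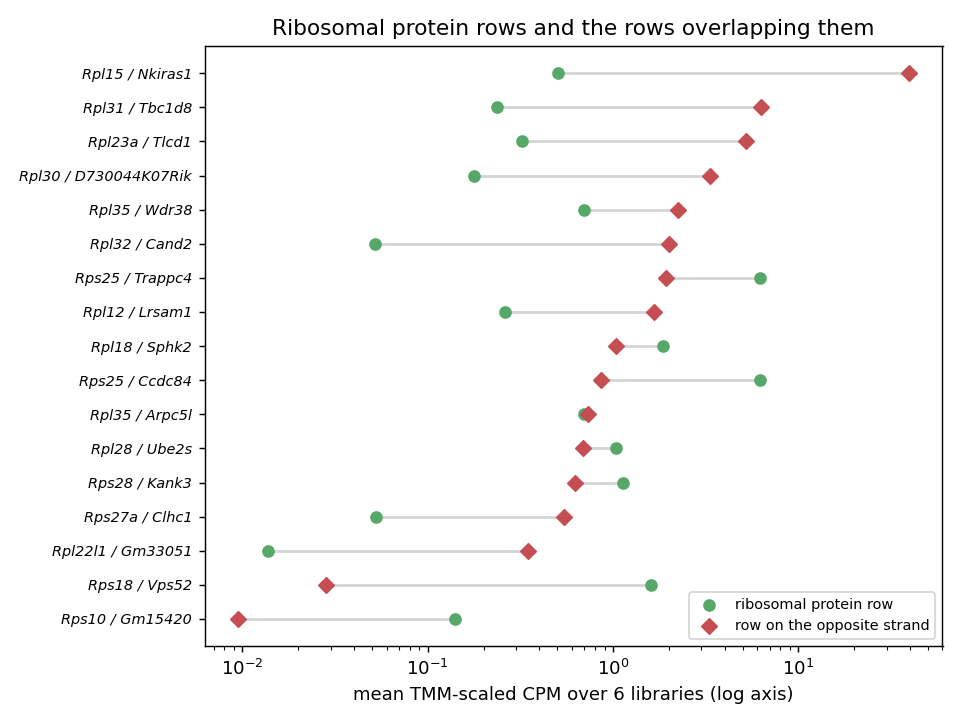
Mean TMM-scaled CPM over the 6 libraries (log axis) of each member (circles) and of the row overlapping it by at least 50 exonic bases on the opposite strand (diamonds). The opposite row is the higher of the pair in 10 of 17, and the widest gap is 0.504 against 39.6 CPM for Rpl15 and Nkiras1.

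Further ribosomal genes did not pass the test either. The 3 ribosomal proteins with other symbols were all higher on average in RGLS, and of the 1 tested 0 were called. Rack1, a scaffold on the small subunit, had 0.610 CPM ± 0.221 and 0.734 ± 0.236. Fau, a fusion with a small subunit protein, had 1 read in model and 14 in RGLS, of which 11 lay in RGLS 1.

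Of 46 listed ribosome biogenesis genes 44 had a row, 11 were tested and 0 rose or fell (unadjusted p under 0.05 in 1 higher and 1 lower). Over all rows tested 6.04% were higher and 17.2% lower at that unadjusted level. Ncl, the nucleolar protein nucleolin, had 5.12, 3.05 and 1.71 CPM in model and 8.22, 7.38 and 3.60 in RGLS (log2 fold change 0.80, limma adjusted p = 0.115). Heatr1, of the early small subunit processome, had 28.1 CPM ± 1.72 and 20.1 ± 4.09 (limma adjusted p = 0.0976), and Lgals8 overlaps it. The 31 rows with no gene opposite summed to 16.2 ± 3.33 and 23.7 ± 4.44 CPM, and the 13 overlapped rows to 63.4 ± 3.43 and 53.8 ± 2.64. Without Heatr1 the other overlapped rows had 35.3 ± 3.27 and 33.7 ± 2.995 CPM, with overlap between groups. Heatr1 was left out after its values were seen, and no row was left out of the 31, which include Ncl.

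The mitochondrial ribosome, whose proteins are encoded separately, gave a lower sum in RGLS. Its 73 rows summed to 97.1 CPM ± 2.33 in model and 80.0 ± 2.08 in RGLS, a log2 ratio of -0.28, against -0.19 for all rows of the table. Most of this sum lay in its 23 overlapped rows. Their log2 ratio was -0.279, against -0.278 for all overlapped rows of the table. The 50 rows with no gene opposite summed to 22.9 ± 0.908 and 18.9 ± 1.66 CPM, and this difference rested on 1 row, Mrpl45. Without it, a choice made after its values were seen, the other 49 had 7.83 ± 0.855 and 7.94 ± 0.841 CPM. Mrpl45 had 15.6, 14.2 and 15.4 CPM in model and 10.9, 11.8 and 10.05 in RGLS (limma adjusted p = 0.0994). Among overlapped rows Mrps25 had 37.02 ± 1.23 and 27.97 ± 3.65 CPM (limma adjusted p = 0.101), of sums of 74.2 ± 1.44 and 61.2 ± 3.15. Of 7 tested mitochondrial ribosomal rows 0 were called, and 3 had an unadjusted p under 0.05, all lower, against 17.2% lower at that level over all rows tested.

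Pseudogene rows named for a ribosomal protein held more reads than the genes, but only through a single row, Rps18-ps4. The 77 rows with -ps symbols summed to 73.4 CPM ± 6.88 in model and 78.0 ± 7.77 in RGLS, against 28.03 ± 2.36 and 27.5 ± 1.02 for the 84 members. Rps18-ps4 alone had 60.8 ± 4.42 and 54.95 ± 4.09 CPM, and RefSeq lists this symbol as a long noncoding RNA. Without it, a choice made after its values were seen, the -ps rows summed to 12.6 ± 3.73 and 23.1 ± 6.81 CPM. That was less than the members in both groups. In that sum RGLS 3 (15.5) lay just under model 1 (15.6). For 23 of 43 parent members with a row the -ps rows together exceeded the parent. Of the 6 tested 0 were called, among them Rps15-ps2 with 0.800 and 2.14 CPM (limma adjusted p = 0.0624). The unadjusted limma p was under 0.05 in 3 of the 6, all higher in RGLS. At that level 6.04% of all rows tested were higher, as were 104 of the 484 with no gene opposite. Reads of a pseudogene can come from its near-identical parent, so these sums cannot be assigned to either.

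S6 kinases, whose symbols start with Rps6k, were mostly near 0. Their 8 rows summed to 3.69 CPM ± 0.469 and 3.86 ± 0.606, nearly all from Rps6kl1, a related kinase-like gene, with 3.40 ± 0.484 and 3.09 ± 0.703 (limma adjusted p = 0.754). Rps6 had 1 read in model and 4 in RGLS.

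**Figure D5:**
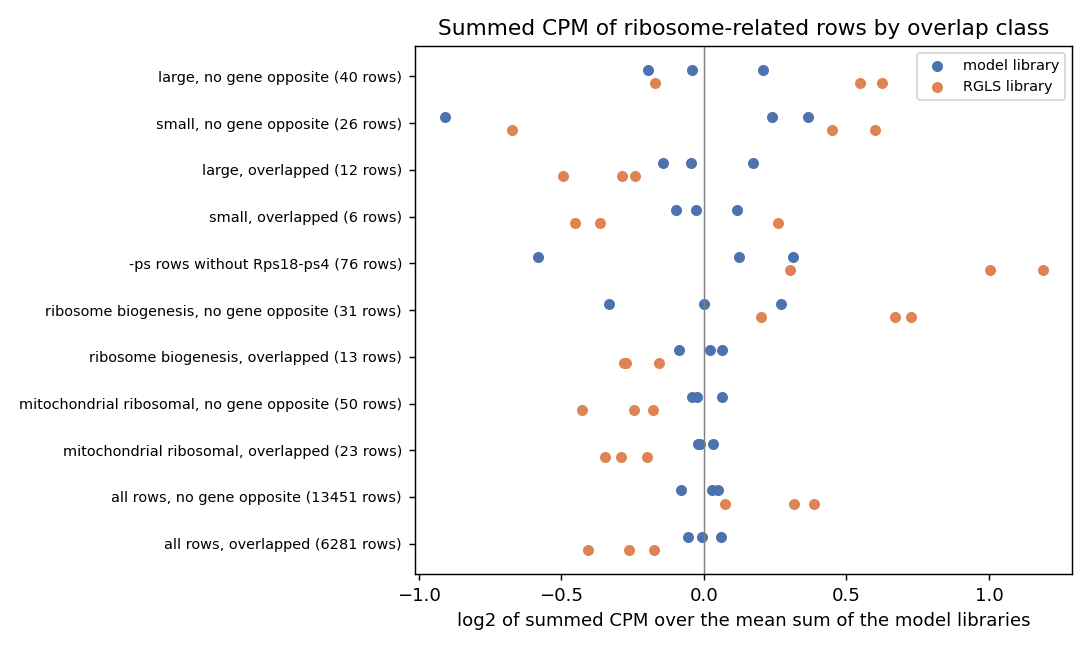
Summed CPM of sets of ribosome-related rows in each library, as the log2 ratio to the mean of the model libraries, with points for libraries. Sets with no gene opposite lie to the right in RGLS 1 and 2 except among mitochondrial ribosomal rows, overlapped sets lie to the left in those libraries, and the mitochondrial ribosomal rows with no gene opposite lie to the left through Mrpl45.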

How the data were processed

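RNA of 6 tumour samples was sequenced, with a SMARTER kit for mRNA-Seq according to the labels. Bowtie2, HTSeq and mm10 stand in the submitters' processing notes, without versions. The deposited table holds TMM-scaled CPM for 20160 symbols, per the name the authors gave it and the values. All values were whole multiples of 1 read (100% within 0.001 of a read), so reads and effective library sizes were recovered. Columns summed to 1.79% to 2.21% of their library, so the authors' library sizes include reads outside these rows.

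Log2(CPM + 1) values were tested with limma 3.58.1 in R 4.3.3, with an intensity trend, 2-sided, over the rows that reached 1 CPM in 3 or more libraries and a threshold of 0.05. Alternatives were other pseudocounts, filters, scalings, a replicate block, omission of each library, and count tests on recovered reads (DESeq2 1.42.0, edgeR 4.0.16). The tests were checked on simulated data. Intervals of read ratios are exact and cover counting error only. Gene positions, exon lengths and overlaps came from GENCODE vM21 (GRCm38), where 19732 rows and all 84 members were found. Positions count from 1.

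The members and lists were chosen with earlier results of these data known. Named members are those tested, the 10 highest by CPM, the 6 highest per length, the paralogs and the stalk proteins. Rpl15, Rpl35, Rps3, Rpl19 and Rpl11 were named after their values were seen. Some genes are not reported here, and the sums and counts include them. P-values measure only the spread between these samples, which may be technical.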

Additional observations from a re-analysis of the deposited data

How the results depend on the processing

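The count of members called was 0 in the main test and in 15 of 16 alternatives, among them edgeR (14 members tested, 1 with an unadjusted p under 0.05) and DESeq2 (15 tested, 2 unadjusted), and it was 1 with no filter on low values. It stayed between 0 and 0 when any library was left out. Over the whole table the main test called 34 rows, and the alternatives called between 4 and 275. The replicate number as a block gave 0 members and 231 rows. The deviations of same-numbered libraries had correlations of 0.004, -0.006 and 0.38, beside -0.30 to 0.33 between differently numbered libraries. Only the libraries numbered 3 deviated together, so the numbers are not taken as pairs.

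The log2 ratio of summed CPM was 0.00 for the large subunit. It was 0.19 as a share of the table's reads and 0.37 over members with no gene opposite. For the small subunit it was -0.06, and 0.12, 0.23 and 0.28 as a share of reads, over members with no gene opposite and without Rps25. The large to small balance differed by 0.06, and by -0.26 without the highest row of each subunit. Leaving out libraries gave -0.07 to 0.11, -0.16 to 0.01 and -0.06 to 0.27 for the 3 measures. Of 135 values of single members under alternatives, 129 kept their sign and side of the threshold. The sign changed for Rpl10a with class medians (0.018), and leaving out libraries gave -0.32 to 0.022, the sign changing without model 2 (0.022). For Rps28 it changed with a common median (0.067) and with class medians (0.142), and leaving out libraries gave -0.101 to 0.034, the sign changing without model 3 (0.034) and without RGLS 2 (0.00055). None of these passed. The cause of these changes was not tested.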
